A study of Mus musculus with 4 samples.

Results

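UDP-glucuronosyltransferases (UGTs) of mouse liver were followed in animals with and without the Cyp3a cluster. The genes taken were 10 of the Ugt1a, Ugt2a and Ugt2b families, namely Ugt1a1, Ugt1a6a, Ugt1a9, Ugt2a3, Ugt2b1, Ugt2b5, Ugt2b34, Ugt2b35, Ugt2b36 and Ugt2b38, and a probe belonged to a gene when its RefSeq accession mapped to that gene. By this rule 8 of the 10 genes had a probe on the array, with 9 probes among 39429, and Ugt1a1 and Ugt1a9 had none and are not analysed here. All 8 passed the filter on dim probes and stand among 17406 genes and other features tested. Total RNA came from the livers of 2 wild type mice and 2 Cyp3a-/- mice, the latter lacking the Cyp3a cluster, and each liver was labelled with Cy3 and hybridised to its own 1-colour Agilent array. The labels speak of independent experiments with different animals and give no sex, age, strain or treatment, nor how the cluster was deleted or which of its genes were lost.

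UGTs are membrane enzymes of the endoplasmic reticulum that attach glucuronic acid, donated by UDP-glucuronic acid, to drugs, steroids, bile acids and bilirubin, which makes them water-soluble and ready for export. They work on the same kinds of molecules as the Cyp3a oxidases, often after those have acted. The Ugt1a genes are made by joining alternative first exons to one set of shared later exons, so their transcripts have the same 3′ end, whereas each Ugt2b gene is a separate copy in a cluster of close relatives. The receptors CAR and PXR, which sense foreign compounds and steroids, are known to switch on several UGT genes.

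The genotype and the tissue were read from the same arrays. Cyp3a11, the main Cyp3a transcript of mouse liver, was well above background in both wild type livers and in neither Cyp3a-/- liver, as was Cyp3a25. Cyp3a13 was 69.1-fold lower in Cyp3a-/- but still well above background in both Cyp3a-/- livers. Its log2 signal, with the array's 75th percentile at 0, was 3.23 and 3.43 in the wild type and -2.84 and -2.72 in the Cyp3a-/- livers. The hepatocyte markers Alb, Apoa1, Ttr, Cps1, Serpina1c and Hnf4a were 6 of 6 well above background on all 4 arrays, with a median log2 fold change of 0.09, and their summed signal ranged from 1803 to 2074 in the wild type and from 2009 to 2092 in the Cyp3a-/- livers, in units of the array's 75th percentile. Of the kidney tubule markers 2 of 4 were measured, with summed signals of 0.301 to 0.309 and 0.298 to 0.373, and the tubule markers Umod and Kap did not pass the filter. Of the intestinal markers 2 of 4 were measured, at 38.8 to 43.0 and 38.2 to 40.9, and Vil1 and Sis did not pass. Of the 2 measured, Lgals4 stood lower in Cyp3a-/- without overlap, at 1.67 and 1.71 in the wild type and 0.72 and 0.82 in the Cyp3a-/- livers (log2 signal with the array's 75th percentile at 0), and the median log2 fold change of both was -0.46. The part of these markers in the results was not tested. The Y-linked genes Ddx3y and Eif2s3y were well above background on 4 of 4 arrays, the 2 Uty probes on 3, and Kdm5d and the 2 Xist probes on 0. The wild type arrays lay on slide 1 and the Cyp3a-/- arrays on slides 2 and 3, so slide and genotype cannot be told apart. In whole liver RNA, fewer cells of a type and less RNA per cell cannot be told apart either.

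No member passed the test between genotypes (0 higher and 0 lower of 8; limma over all features, Benjamini-Hochberg adjusted p, threshold 0.05), where 0.276% of all features passed. At an unadjusted p under 0.05, 3 of the 8 were higher and 0 lower, beside 4.60% and 5.42% of all features, and these 3 were Ugt2b1, Ugt2b34 and Ugt2a3. Without wild type 1 the count under that p was 1, and over the other alternatives it was 2 or 3. They were also the 3 members whose livers did not overlap between the genotypes, all higher in Cyp3a-/-, beside 22.5% of all features (42.8% in either direction). The log2 fold change was above 0 for 7 of the 8, beside 51.4% of all features, and for 3 without wild type 1, 3 without Cyp3a-/- 1 and 4 under quantile normalization. The median log2 fold change of the 8 was 0.17, against 0.01 over all features. The sign of that median rested on single livers, since it was -0.04 without wild type 1 and -0.02 without Cyp3a-/- 1.

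**Figure D1:**
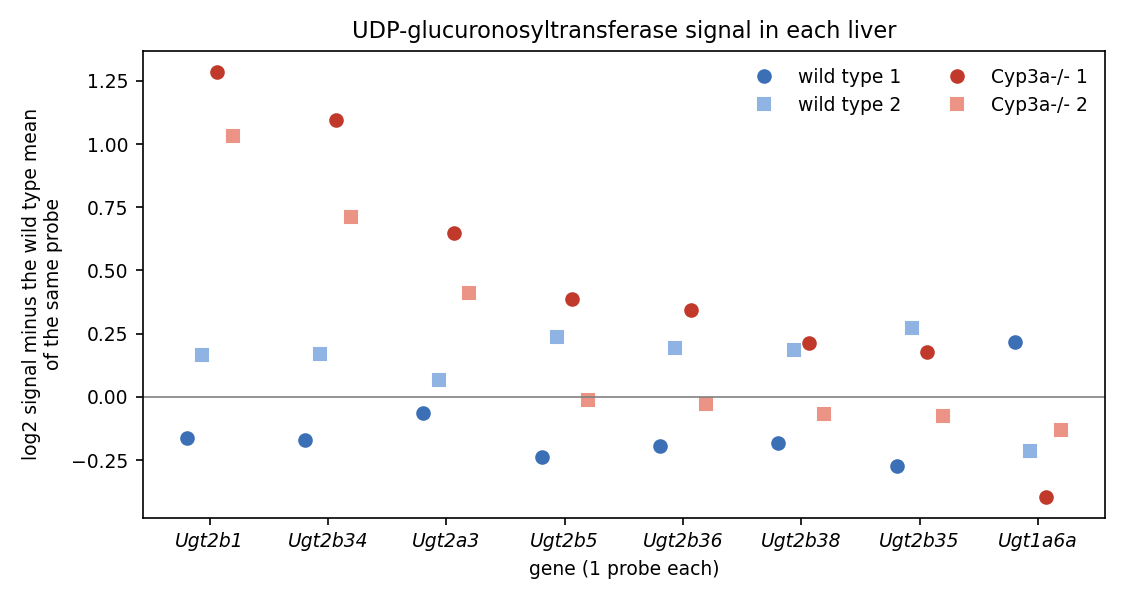
Log2 signal of each member in each of the 4 livers, minus the wild type mean of the same probe; blue marks are wild type and red marks Cyp3a-/- livers, circles replicate 1 and squares replicate 2. The Cyp3a-/- marks lie above both wild type marks for Ugt2b1, Ugt2b34 and Ugt2a3, and the genotypes overlap for the other 5 genes.

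Ugt2b1, a Ugt2b enzyme, had the largest difference among the 8 members. Levels here and below are log2 signals with the 75th percentile of each array set to 0. Ugt2b1 was at 3.96 and 4.29 in wild type 1 and 2 and 5.41 and 5.16 in Cyp3a-/- 1 and 2. Both Cyp3a-/- livers thus lay above both wild type livers, and the gap between the genotypes was wider than the gap within either. The mean went from 4.13 ± 0.23 to 5.29 ± 0.18 (SD, n = 2 per genotype), a log2 fold change of 1.16 ± 0.21 (SE; 2.23-fold, 95% interval 1.55 to 3.22). Limma ranked it 169 of 17406 features by p, and the adjusted p of 0.203 missed the threshold. Scaling the arrays to their median gave 1.19 with an adjusted p of 0.0084, under a setting in which the variance prior was estimated as infinite. Over the alternatives that kept all 4 livers the limma adjusted p ranged from 0.0084 to 0.467. The fold change was above 0 in each of the 16 alternatives, but most of them could not change its sign. Those that altered only the filter, the block or the variance left the estimate of its 1 probe at 1.16. Leaving out 1 liver cannot reverse groups that do not overlap.

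Ugt2b34, the neighbour of Ugt2b1 in the cluster on chromosome 5, had the next largest difference. Its log2 signal was 5.36 and 5.70 in the wild type and 6.62 and 6.24 in the Cyp3a-/- livers. The genotypes did not overlap, and the lower Cyp3a-/- liver was 0.54 above the higher wild type liver. The log2 fold change was 0.90 ± 0.23 (1.87-fold, 95% interval 1.26 to 2.78; limma adjusted p = 0.313). Ugt2a3, a liver and gut enzyme whose human counterpart acts on bile acids, stood at 4.61 and 4.74 in the wild type and at 5.32 and 5.08 in the Cyp3a-/- livers. These groups did not overlap either, with a log2 fold change of 0.53 ± 0.19 (1.44-fold, 95% interval 1.04 to 2.00; limma adjusted p = 0.457). For comparison, Cyp2b10, the classic CAR target, was 20.2-fold higher in the same Cyp3a-/- livers (limma adjusted p = 0.0040).

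**Figure D2:**
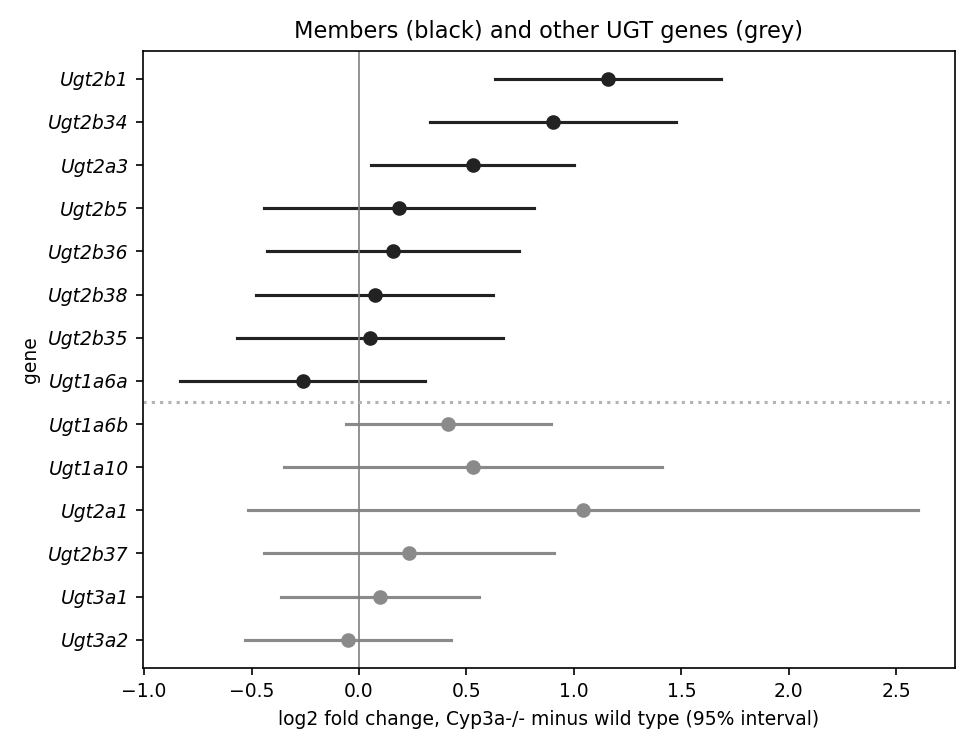
Log2 fold change (Cyp3a-/- minus wild type) with its 95% interval for the 8 members (black) and for 6 other UGT genes (grey), from the fit over all features. The unadjusted intervals of Ugt2b1, Ugt2b34 and Ugt2a3 lie above 0, while those of the other 11 genes include 0.

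The other Ugt2b members, Ugt2b5, Ugt2b35, Ugt2b36 and Ugt2b38, differed more between livers of one genotype than between the genotypes. Ugt2b5 stood at 6.39 and 6.87 in the wild type and at 7.01 and 6.61 in the Cyp3a-/- livers (log2 signal). Ugt2b36 stood at 5.85 and 6.24 and at 6.39 and 6.02 in the same order. Wild type 1 was the lowest liver for both, followed by Cyp3a-/- 2, wild type 2 and Cyp3a-/- 1. Ugt2b38 stood at 7.44 and 7.81 and at 7.84 and 7.56, in that same order of livers. For Ugt2b35 the brighter of 2 probes stood at 3.26 and 3.80 and at 3.71 and 3.45, with wild type 2 rather than Cyp3a-/- 1 the highest, and the dimmer probe at 0.42 and 1.02 and at 1.20 and 0.58, in the order of the other genes. The genotypes overlapped for each of these 4 genes.

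The log2 fold changes of these 4 were small, at 0.19 ± 0.25 for Ugt2b5 (95% interval -0.44 to 0.82), 0.16 ± 0.23 for Ugt2b36 (-0.43 to 0.74), 0.07 ± 0.22 for Ugt2b38 (-0.48 to 0.62) and 0.05 ± 0.25 for Ugt2b35 (-0.57 to 0.67), with limma adjusted p between 0.830 and 0.959. On the linear scale the 4 intervals together reached from 0.674-fold to 1.76-fold. Their signs changed with the livers used: without wild type 1 the values ran from -0.22 for Ugt2b35 to -0.035 for Ugt2b36, and without Cyp3a-/- 1 from -0.076 for Ugt2b35 to -0.014 for Ugt2b5. The dimmer Ugt2b35 probe gave 0.17 ± 0.31 (adjusted p = 0.881 over all kept probes).

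The order of the livers was noticed in these values, so it is given as a description with no test. The order wild type 1, Cyp3a-/- 2, wild type 2, Cyp3a-/- 1 held for 3 of the 8 members at their brighter probe, and for 697 of 17406 features (4%). Relative to the mean of the 4 livers, the median of Ugt2b5, Ugt2b35, Ugt2b36 and Ugt2b38 lay at -0.28 in wild type 1, 0.15 in wild type 2, 0.22 in Cyp3a-/- 1 and -0.11 in Cyp3a-/- 2. The 2483 features of a mean signal in the range of the 7 brighter members had medians of -0.07, -0.06, -0.0025 and 0.11 in the same livers, and the hepatocyte markers had 0.01, -0.13, 0.04 and 0.08. Neither set had that order of livers. In Ugt2b1, Ugt2b34 and Ugt2a3, too, wild type 1 was below wild type 2 and Cyp3a-/- 2 below Cyp3a-/- 1. This is a looser pattern than the full order, and its share of all features is not given here.

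**Figure D3:**
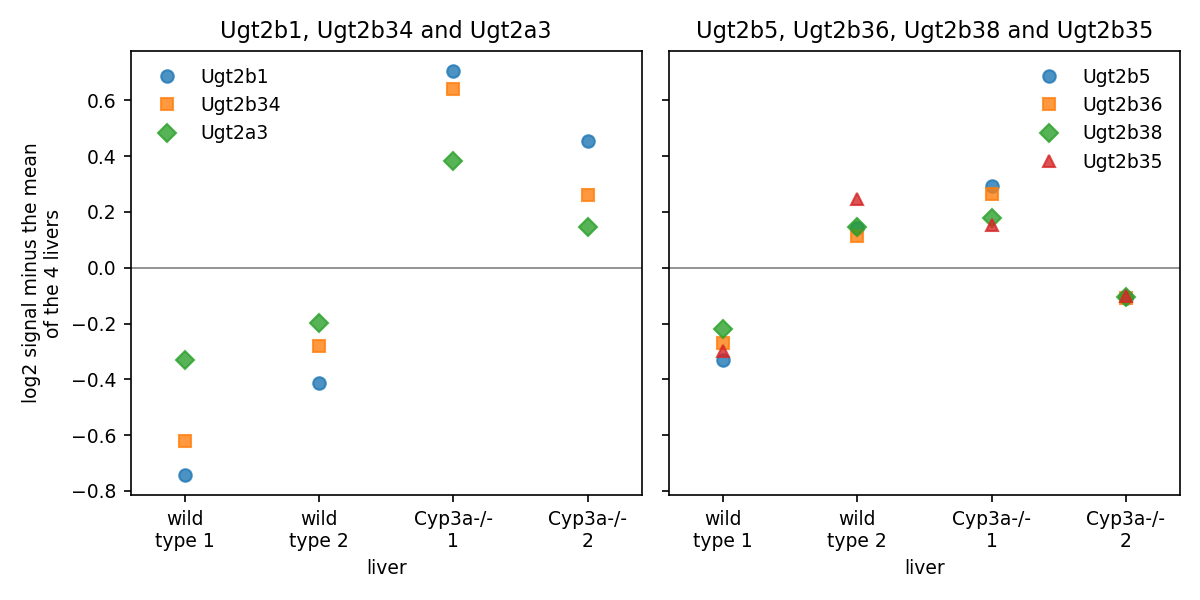
Log2 signal minus the mean of the 4 livers for Ugt2b1, Ugt2b34 and Ugt2a3 (left) and for Ugt2b5, Ugt2b36, Ugt2b38 and Ugt2b35 (right), 1 probe per gene. The genes on the left separate the genotypes, whereas on the right wild type 1 and Cyp3a-/- 2 lie below 0 and the other 2 livers above it; the genes were placed in the panels by these values.

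The sequences before the start sites are shown because the genes that shared an order of livers are close copies, and they were chosen after the values were seen. Each is the stretch of 80 bases ending at the base before the annotated start, 5′ to 3′ on the gene's strand, from RefSeq (GRCm38.p6). All 8 measured members matched a listed promoter. Capitals mark AGGTCA, a half-site of nuclear receptors such as HNF4A, PPARA, CAR and PXR, found on either strand. Ugt2b37 is no member and is included as the closest copy of Ugt2b38.
Ugt2b5, chr5:87140341-87140420, minus strand: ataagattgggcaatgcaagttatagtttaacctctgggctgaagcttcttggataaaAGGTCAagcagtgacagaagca
Ugt2b36, chr5:87092556-87092635, minus strand: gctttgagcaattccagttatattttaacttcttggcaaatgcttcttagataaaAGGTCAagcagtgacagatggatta
Ugt2b38, chr5:87424204-87424283, minus strand: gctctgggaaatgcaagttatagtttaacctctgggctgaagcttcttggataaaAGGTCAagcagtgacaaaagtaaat
Ugt2b37, chr5:87254789-87254868, minus strand: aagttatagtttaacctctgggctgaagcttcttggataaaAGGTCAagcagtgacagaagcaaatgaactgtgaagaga
Ugt2b35, chr5:87000780-87000859, plus strand: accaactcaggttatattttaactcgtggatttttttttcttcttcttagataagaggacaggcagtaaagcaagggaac
Ugt2b1, chr5:86926504-86926583, minus strand: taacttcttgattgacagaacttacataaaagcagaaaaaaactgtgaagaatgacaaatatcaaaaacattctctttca
Ugt2b34, chr5:86906938-86907017, minus strand: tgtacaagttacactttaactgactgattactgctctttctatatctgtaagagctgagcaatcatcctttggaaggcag

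Ugt2b5, Ugt2b36, Ugt2b37 and Ugt2b38 shared the unbroken run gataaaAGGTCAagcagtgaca of 22 bases. It was sought as the longest run common to these 4, so its presence in them was fixed beforehand. Searched on the gene's strand only, it was in no other of the 32851 listed promoters. For a string taken from close copies this count describes their likeness and is no test. Over the 250 bases before the start, Ugt2b5, Ugt2b37 and Ugt2b38 had 198 to 224 identical bases in pairwise alignments, and Ugt2b36 had 157 to 160 against these 3. The brighter or only probe of these 4 genes followed the order of livers given above, as did that of Ugt1a10. The run was sought in these 4 after their values were seen, so its match with the order was largely built in. A link between the run and the order was not tested. Ugt2b35, whose dimmer probe also followed the order, lacked the run. As related copies the 4 genes are not separate cases. Ugt2b37 stood at 5.10 and 5.46 in the wild type and at 5.82 and 5.21 in the Cyp3a-/- livers. Probes for such copies can share a target. Probe sequences were not used here, and these values may mix several of the copies.

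Other motifs were searched over 250 bases before to 50 after the start, on both strands. AGGTCA was in 4 of the 8 measured members (Ugt2b5, Ugt2b36, Ugt2b38 and, 215 bases before the start, Ugt2b35) and in 16.3% of all listed promoters. Its variant AGTTCA was in Ugt2b1 alone of the 8, after the start, and in 14% of all. The AhR core GCGTG was in 0 of the 8 and in 32.4% of all, and the NRF2 core TGACNNNGC in 0 of the 8 and in 12.4% of all. Apart from the AGTTCA of Ugt2b1, the windows of Ugt2b1 and Ugt2b34 held none of the 4 strings. A match is a string of letters in this window and not a measured binding site.

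Ugt1a6a, an enzyme of planar phenols and the only Ugt1a member with a probe, was dim. It stood at -2.16 and -2.59 in the wild type and at -2.77 and -2.51 in the Cyp3a-/- livers, well above background on all 4 arrays. The groups overlapped, with a log2 fold change of -0.26 ± 0.23 (95% interval -0.83 to 0.31; limma adjusted p = 0.728). It was the only member below 0. The related Ugt1a6b had 2 probes that differed in sign. The brighter stood at 7.36 and 7.56 in the wild type and at 7.98 and 7.77 in the Cyp3a-/- livers, so that its genotypes did not overlap (log2 fold change 0.42 ± 0.19, limma adjusted p = 0.555), and the dimmer gave -0.19 ± 0.29 (adjusted p = 0.855 over all kept probes). Whether a probe lies in a first exon or in the exons shared by all Ugt1a transcripts is not given in the sources used here, so the Ugt1a6b values may stand for more than that gene.

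Among the UGT genes that are no members, 7 had a probe and 6 passed the filter, and 0 were higher or lower by the test. Ugt1a10 was at 0.53 ± 0.35 and Ugt2b37 at 0.23 ± 0.27 (log2 fold change, SE). Ugt3a1, whose family uses other sugar donors, was at 0.10 ± 0.18 and Ugt3a2 at -0.05 ± 0.19. Ugt2a1, best known from olfactory tissue, was at 1.04 ± 0.62 and was well above background in 1 of 2 wild type livers. Ugt8a, which makes the myelin lipid galactosylceramide, was well above background on 0 of the 4 arrays.

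The listed genes of donor supply, transport and deconjugation of glucuronides, bilirubin formation and use of glucuronic acid were measured in full, 19 of 19, and 0 passed the test in either direction, with 1 higher and 0 lower at an unadjusted p under 0.05, beside 4.60% and 5.42% of all features, a share near that background. Their median log2 fold change was 0.06. For the sugar donor, Ugp2, which makes UDP-glucose, was at 0.16 ± 0.18 and Ugdh, which oxidises it to UDP-glucuronic acid, at 0.39 ± 0.22. Ugdh stood at 4.41 and 4.85 in the wild type and at 5.06 and 4.98 in the Cyp3a-/- livers, without overlap (limma adjusted p = 0.608). Slc35d1, which carries the donor into the endoplasmic reticulum, was at -0.49 ± 0.38, and its livers overlapped.

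For removal and export of glucuronides, Gusb, the lysosomal enzyme that splits them, was at 0.37 ± 0.19 (limma adjusted p = 0.584). Abcc2, the canalicular pump for conjugates, was at 0.12 ± 0.20. Abcc3, which exports glucuronides to blood, was the 1 gene of the pathway under the unadjusted threshold. It stood at 4.83 and 4.87 in the wild type and at 5.29 and 5.67 in the Cyp3a-/- livers, a log2 fold change of 0.63 ± 0.21 (1.54-fold; limma adjusted p = 0.418). On the route of bilirubin, the haem oxygenase gene Hmox1 was at -0.42 ± 0.22, the reductase genes Blvra and Blvrb at 0.14 ± 0.17 and 0.05 ± 0.21, and the uptake transporter gene Slco1b2 at 0.17 ± 0.21. None of these 4 passed the test.

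**Figure D4:**
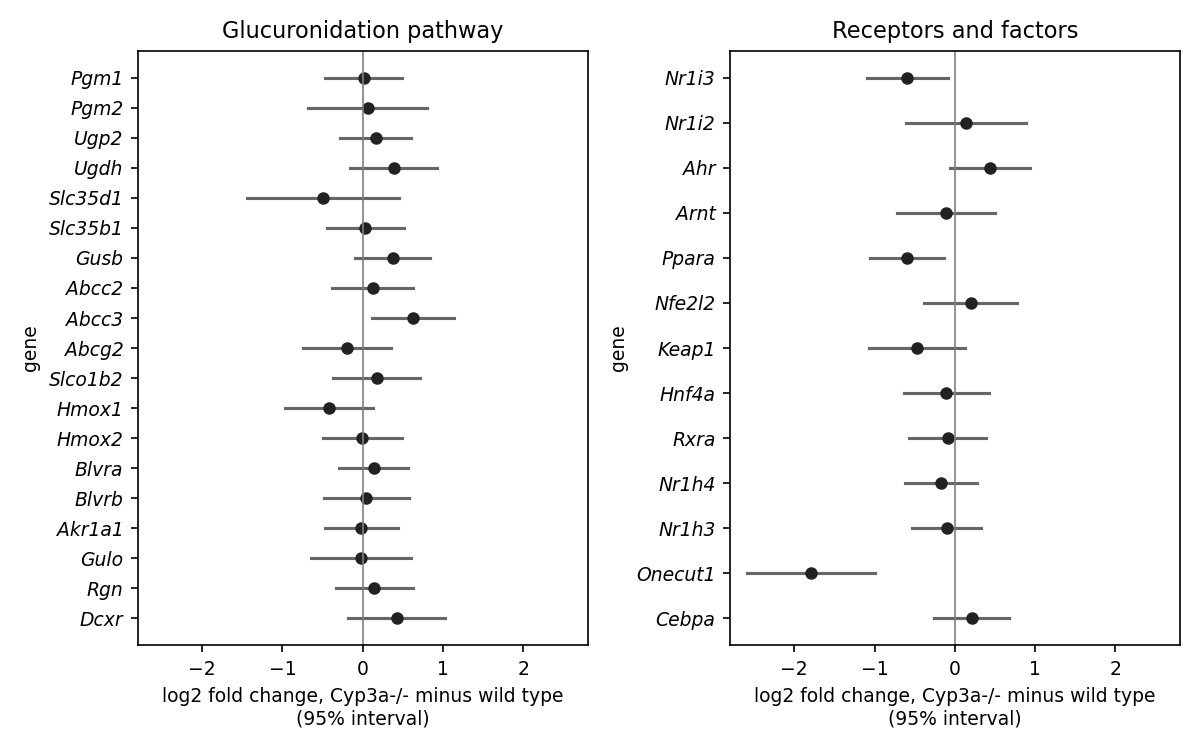
Log2 fold change (Cyp3a-/- minus wild type) with its 95% interval for 19 genes of donor supply, deconjugation, transport, bilirubin formation and use of glucuronic acid (left) and for 13 receptors and transcription factors (right). No gene passed the adjusted threshold; the unadjusted intervals of Abcc3, Nr1i3, Ppara and Onecut1 do not include 0.

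Of 14 receptors and factors known to act on UGT genes or on hepatocyte genes, 13 were measured and 0 passed the test, while 0 were higher and 3 lower at an unadjusted p under 0.05, beside 4.60% and 5.42% of all features. The CAR gene Nr1i3 stood at 3.34 and 3.44 in the wild type and at 2.62 and 2.98 in the Cyp3a-/- livers, with a log2 fold change of -0.59 ± 0.20 (limma adjusted p = 0.444). Ppara, the receptor of fatty acids, was at -0.59 ± 0.18 (adjusted p = 0.389) and Onecut1, a liver factor also called HNF6, at -1.79 ± 0.32 (adjusted p = 0.198). Of the 13, the groups did not overlap for 6 that were lower, these 3 among them, and for 2 that were higher. The shares of all features were 20.2% and 22.5%. The PXR gene Nr1i2 was at 0.14 ± 0.30, Ahr at 0.44 ± 0.20, the NRF2 gene Nfe2l2 at 0.20 ± 0.23 and Hnf4a at -0.10 ± 0.21. Transcript levels of a receptor do not measure its activity.

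Over 16 alternatives the log2 fold change ran from 0.99 to 1.32 for Ugt2b1, from 0.71 to 1.09 for Ugt2b34 and from 0.40 to 0.65 for Ugt2a3. Ugt2b34 and Ugt2a3 passed the threshold in 0 of the 16, with adjusted p of at least 0.079 and 0.206, and Ugt2b1 passed in 1, the median scaling.

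**Figure D5:**
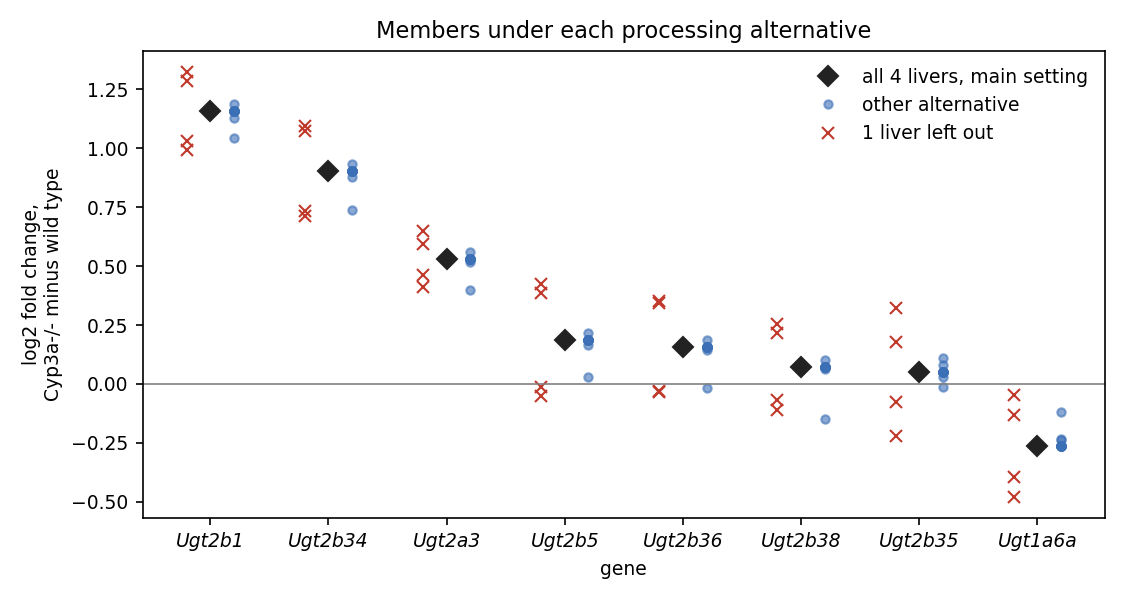
Log2 fold change (Cyp3a-/- minus wild type) of each member with all 4 livers in the main setting (diamonds), with 1 liver left out (crosses) and under the other alternatives (dots). Ugt2b1, Ugt2b34 and Ugt2a3 stay above 0 and Ugt1a6a below 0 throughout, and the other 4 genes lie on both sides of 0. For Ugt2b1, Ugt2b34 and Ugt2a3 leaving out 1 liver could not change the sign, as their genotypes do not overlap. Several of the other alternatives leave an estimate unchanged.

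The features most like the median profile of the 8 members, by Euclidean distance over the 4 livers centred on their mean, were Noa1, Mbnl3, Agbl3, Arfgap3 and Memo1, at distances of 0.040 to 0.058 (log2). With 4 livers such likeness is common, and 334 features with a symbol lay within 0.2.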

How the data were processed

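For each liver the authors deposited the scanner output of 1 array. Its intensity values came from Agilent Feature Extraction 11.5.1.1 (named in the submitters' processing notes), and the processed intensity was already background-subtracted and detrended, per the file headers, with no scaling from array to array. Other deposited columns are flags, listed as other values, that mark spots well above background, saturated or outlying. A deposited table of log2 values names neither scale nor centring. In a comparison with the scanner files it behaved as log2 processed intensity scaled per array, with the median of the 4 livers taken from each probe (column medians 0.06, -0.073, -0.021 and 0.021). Unused per-sample columns numbered 0.

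Control spots and 113 to 148 outlier spots per array were left out, and spots of a probe were averaged. From log2 processed intensity the 75th percentile of the array (308 to 352) was subtracted. Probes dim in both genotypes were dropped, a genotype counting as dim unless both of its arrays flagged the probe well above background, which left 21508. On each array 54.4% to 56.4% of probes met that mark and 0 were saturated. RefSeq accessions (GRCm38.p6) gave symbols to 28025 probes and none to 11404. Where several probes of a gene were left, the brightest on average stood for it.

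The test was limma 3.58.1 (R 4.3.3), 2-sided, with Benjamini-Hochberg adjustment over 17406 features, 2 residual and 3.54 prior degrees of freedom. The fit was tried on simulated data with independent arrays and no slide effect. Such data cannot show how it behaves where slide and genotype go together. With 2 livers per genotype, precision is limited by their number. The p-values weigh each difference against the spread between these livers, drawn towards the spread typical of all features. The wild type arrays share slide 1 and the Cyp3a-/- arrays lie on slides 2 and 3, so that spread may also hold slide differences. An exact permutation test of 2 against 2 cannot go below 0.333 and was not used. Promoters were aligned with Biopython 1.88. The alignment scores were changed once, after a first choice had left related promoters unaligned, and identities depend on them. The text names all members and their probes, the remaining UGT genes and set genes of the pathway and regulators. Members and lists were chosen with earlier results of these data known. One regulator and its motif are not reported here.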

Additional observations from a re-analysis of the deposited data

How the results depend on the processing

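No member was called in the main setting or in 15 of 16 alternatives. Median scaling called 1 member higher (Ugt2b1) and 659 features in all, against 48, with an infinite prior for the variance. Without a filter on dim probes 13 features were called, with a filter requiring all 4 arrays 9, and without 1 array 7 to 506. Counts of members called lower and of pathway genes called stayed at 0 in all 16 alternatives. The median of the members ran from -0.04 to 0.39, with 0.01 under quantile normalization. Quantile normalization turned the sign of Ugt2b35 (-0.014), Ugt2b36 (-0.017) and Ugt2b38 (-0.15). Without 1 array the log2 fold change ran from -0.051 to 0.42 for Ugt2b5, from -0.22 to 0.32 for Ugt2b35, from -0.035 to 0.35 for Ugt2b36 and from -0.11 to 0.26 for Ugt2b38. The cause was not tested. With the replicate number as a block 58 features and 0 members were called, and Ugt2b1 had a limma adjusted p of 0.236. The numbers are not stated to pair the livers, and same-numbered livers deviated from their group means with a correlation of -0.102 over features. A crossed block, chosen after seeing the data, called 56 features and 0 members. Slide as a random block could not be fitted with duplicateCorrelation, which gave 0 estimates. With a within-slide correlation of 0.355 taken from squared differences between arrays, also chosen after seeing the data, 33 features and 0 members were called. With 1 array of a genotype left out, the lone array is assumed to vary like those of the other genotype.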

Other observations

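The second, dimmer probe of Ugt1a10, an isoform of the Ugt1 locus, stood apart in 1 liver. Its log2 signal was -4.93 and -4.38 in the wild type livers, -2.30 in Cyp3a-/- 1 and -4.67 in Cyp3a-/- 2. This probe was well above background in 1 of 2 wild type livers and in 2 of 2 Cyp3a-/- livers. Outside Cyp3a-/- 1 it lay near the lowest signals with that mark, which were -4.93 to -4.65 over the arrays. The brighter probe of the same gene was also highest in Cyp3a-/- 1, at 1.97, against 0.71, 1.44 and 1.24 in wild type 1, wild type 2 and Cyp3a-/- 2. The dim Ugt2a1 probe was lowest in wild type 2, at -5.87, where it was not well above background, and lay between -3.92 and -3.75 in the other 3 livers.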
